A study of Homo sapiens with 5 samples.

Results

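Of the 3645 shared regions in the SRSF9 binding map, 2529 lay on nuclear chromosomes and had a positive log2 ratio in all 4 eCLIP libraries. These regions were chosen by their measured values. A deposited row was taken when its ratio was above 0 in each library, with the mitochondrial chromosome left out, and the 2629 rows that met this were averaged where their coordinates were identical. The whole table held 80514 rows of peaks, counted before any averaging. The 2529 regions were thus 69.4% of the shared regions, and 87 of them were averages of 2 or more rows. At 1 of them, chr1:78444562-78444722, a further row was below 0 in both SRSF9-only libraries and was not used.

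The samples were HEK 293T cells, an established human embryonic kidney line, in 2 conditions. All of them overexpressed SRSF9, and 2 libraries came from cells with SRSF9 alone while 2 came from cells that also overexpressed ADAR2. A further library of input RNA came from cells with both proteins, and it has no column in the table of ratios. The labels name an antibody to SRSF9, whereas the protocol names MYC-coupled beads, and nothing states whether the libraries of a condition were separate cultures. The ages of the cultures, the promoters and whether the lines were clonal are not stated in the sources used here, and the cell type was not checked against marker genes because the table names no genes.

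SRSF9, also called SRp30c, is a serine/arginine-rich protein that binds RNA through its RNA recognition motifs and influences splice site choice. ADAR2 is an enzyme that edits adenosine to inosine where RNA is double-stranded, and the series concerns the repression of ADAR2 targets by SRSF9. In eCLIP, RNA fragments bound to a protein are recovered with it and sequenced, so that a stretch with more fragments than in a reference sample appears as a peak with a positive log2 ratio. A region above 0 in every library is therefore one with a positive deposited ratio with and without ADAR2. Some of these ratios were small, such as 0.06 in 76 regions in the second library with ADAR2. The table does not say how the ratios were scaled, so whether recovered RNA exceeded the reference in each region was not tested. The reference of the ratios is not named in the table, and depth is unknown. All positions are on hg19 and counted from 1. The annotation at hand is on GRCh38, so genes, transcript regions and sequences of the regions were not analysed here.

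The ratios were moderate in 3 libraries and low in the second SRSF9-only library. In the first SRSF9-only library they ran from 0.006 to 4.36 with a median of 1.24 (quartiles 0.77 and 1.84). In the second SRSF9-only library they ran from 0.0003 to 2.93 with a median of 0.36 (0.17 and 0.67). With ADAR2, the first library had a median of 1.42 (0.94 and 1.93) and the second a median of 1.14 (0.70 and 1.64). The second SRSF9-only library held the lowest of the 4 values in 1894 regions, which is 74.9% of them, and the highest in 21. In 93.8% of the regions the first SRSF9-only library was the higher of its pair, and the median gap, first minus second, was 0.84. In the pair with ADAR2 the median absolute gap was 0.44.

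**Figure D1:**
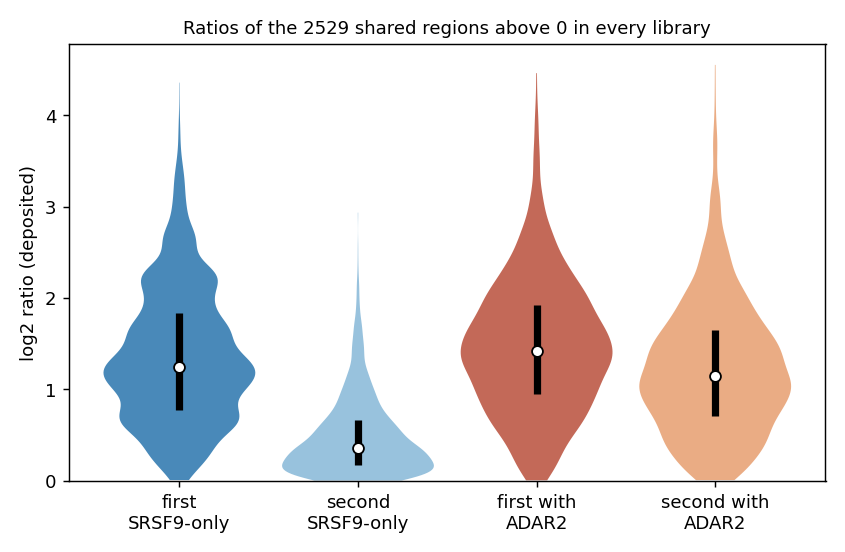
Distribution of the deposited log2 ratio (vertical axis) of the 2529 shared regions above 0 in every library, by library; the violin widths show density, black bars the quartiles and white points the median. The second SRSF9-only library, with a median of 0.36, sits below the other 3, whose medians lie between 1.14 and 1.42.

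Few regions stood far above 0 everywhere. A ratio above 0.5 in every library was reached by 737 regions, or 29.1%, and one above 1 by 149, or 5.89%. Above 1.5 there were 26 and above 2 there were 2. The second SRSF9-only library set these numbers, since 295 regions exceeded 1 in it, against 1671 in the first SRSF9-only library and 1824 and 1497 in the libraries with ADAR2. Near the limit of the rule, the 5 regions with the smallest lowest value had it in the second SRSF9-only library, at 0.0003 to 0.001. One of them, chr12:112847296-112847397, had 0.77 and 0.001 in the SRSF9-only pair, against 2.97 and 2.69 with ADAR2. The 5 shared regions just outside had lowest values of -0.056 to -0.035. Among these, chr1:31532152-31532201 had -0.043 and -0.028 in the SRSF9-only pair, against 1.72 and 1.55 with ADAR2. The regions on either side of 0 therefore differed by less than 0.1 in the value that separated them. A lowest value under 0.05 was found in 217 regions, and in 195 of these it was that of the second SRSF9-only library.

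The values of several libraries fell on a few repeated steps. In the first SRSF9-only library, 268 regions had a ratio of 0.658, 226 had 1.243, 220 had 2.243 and 210 had 1.658, which together were 36.5% of all 2529. The 4 commonest values covered 11.2% and 13.8% of the regions in the libraries with ADAR2 and 8.78% in the second SRSF9-only library. Equal ratios at different places in the first SRSF9-only library are thus common. The steps 0.658 and 1.658 share their decimals, as do 1.243 and 2.243. High values of that library named below have them too, such as 3.658 in chr7:100477494-100477533 and 3.243 in chr6:79711721-79711731. The coarse grain is thus not confined to small differences or low values. Read counts are not given, so whether high ratios rest on few reads was not tested.

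The regions with the highest ratios throughout were spread over 7 chromosomes. They were ranked by their lowest value, which ran from 1.66 to 2.10 over the first 10. At the head of the list, chr2:230786597-230786666 had 3.46 and 2.33 in the SRSF9-only pair, against 2.45 and 2.10 with ADAR2. All 4 values lay above 2 there, and the conditions overlapped. In chr17:59940788-59940857 the values were 2.24 and 2.04 in the SRSF9-only pair, against 2.71 and 2.23 with ADAR2, the only other region above 2 throughout. In chr7:100477494-100477533 they were 3.66 and 2.18 in the SRSF9-only pair, against 1.94 and 2.12 with ADAR2. Both values without ADAR2 were the higher there. The X-linked region chrX:70761311-70761431 had 2.66 and 2.30 in the SRSF9-only pair, against 1.83 and 2.0 with ADAR2, again with no overlap.

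The largest difference in the list, 1.98, was in chr14:21463336-21463396, with 1.66 and 2.14 in the SRSF9-only pair, against 4.04 and 3.72 with ADAR2. There the conditions did not overlap. Some other regions of the same list differed little between the conditions. In chr5:134152170-134152217 the SRSF9-only mean was 2.32 ± 0.71 (SD, n = 2), and with ADAR2 it was 2.06 ± 0.0064 (SD, n = 2). In chr1:93584926-93584961 it was 2.05 ± 0.28 and 2.09 ± 0.42 (SD, n = 2 each), and in chr7:42957175-42957243 it was 2.60 ± 1.22 and 2.59 ± 0.082 (SD, n = 2 each). The short region chr2:178083770-178083780, of 11 nt, had 1.66 and 2.14 in the SRSF9-only pair, against 1.81 and 1.97 with ADAR2. In these 4 regions the difference between conditions was smaller than the gap between the SRSF9-only libraries. Of the 10 regions, 4 had a higher mean with ADAR2 and 6 a lower one.

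Ranking by the mean of the 4 libraries gave another list, with 4 regions in common with the first. It was headed by chr14:21463336-21463396, named above. Next came chr14:45578936-45578975, with 1.66 and 1.38 in the SRSF9-only pair, against 3.88 and 4.23 with ADAR2. The list also included chr2:112630226-112630281, with 2.98 and 1.89 in the SRSF9-only pair, against 2.65 and 3.06 with ADAR2. In chr19:879291-879338 the ratios were 2.83 and 1.56 in the SRSF9-only pair, against 3.53 and 2.87 with ADAR2. The members of the list were not evenly high. In chr3:12047510-12047564 the ratios were 2.24 and 0.095 in the SRSF9-only pair, against 3.53 and 4.31 with ADAR2. In chr8:24810084-24810094 they were 4.12 and 2.54 in the SRSF9-only pair, against 1.88 and 1.65 with ADAR2. The first of these was high with ADAR2 and uneven without it. The second was higher without ADAR2, and its mean with ADAR2, 1.76, was still above the upper quartile of the 2529 regions, 1.72.

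Among the 737 regions above 0.5 throughout, the closest sets of 4 values were found at ratios of about 0.7 and 1.4. These 3 were picked after their values were seen. In chr6:42854032-42854094 the ratios were 0.658 and 0.716 in the SRSF9-only pair, against 0.721 and 0.738 with ADAR2. In chr19:34885386-34885403 they were 1.395 and 1.394 in the SRSF9-only pair, against 1.33 and 1.55 with ADAR2. In chr17:49237340-49237409 they ran from 0.62 to 0.725. Such closeness was rare, as all 4 values lay within 0.5 of each other in 74 regions, or 2.93%, and the median range over the 4 libraries was 1.44.

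Within the chosen regions, levels without and with ADAR2 were nearly uncorrelated. Across the 2529 regions, Pearson's r was 0.54 between the SRSF9-only libraries and 0.64 between the libraries with ADAR2 (Spearman's rho 0.46 and 0.60). Between a library without and a library with ADAR2, r lay between 0.02 and 0.07 in all 4 pairings, and between the condition means it was 0.05 (rho 0.06). Over all 3645 shared regions, which include the negative values, r between the condition means was 0.38 (rho 0.23). There, r within the conditions was 0.82 and 0.83. No shared row paired a positive ratio with a negative one in the same condition. That can raise r within the conditions, so 0.82 and 0.83 were not read as agreement between libraries. Among the 737 regions above 0.5 throughout, r was 0.51 and 0.61 within the conditions and -0.02 between them. The rule cut all 4 columns at 0, which restricts the range of both conditions and can lower r between them, so these values describe the chosen regions alone. The correlations run across regions, which are not independent of each other and share the same 4 libraries.

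Ranks were taken among the same chosen regions. Of the 632 regions in the upper quartile of the mean without ADAR2, 170 were also in the upper quartile with it and 145 were in the lowest quartile. Of the 633 in the lowest quartile without ADAR2, 179 were in the lowest with it and 134 in the upper. The upper quartile of each single library held 54 regions in common.

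**Figure D2:**
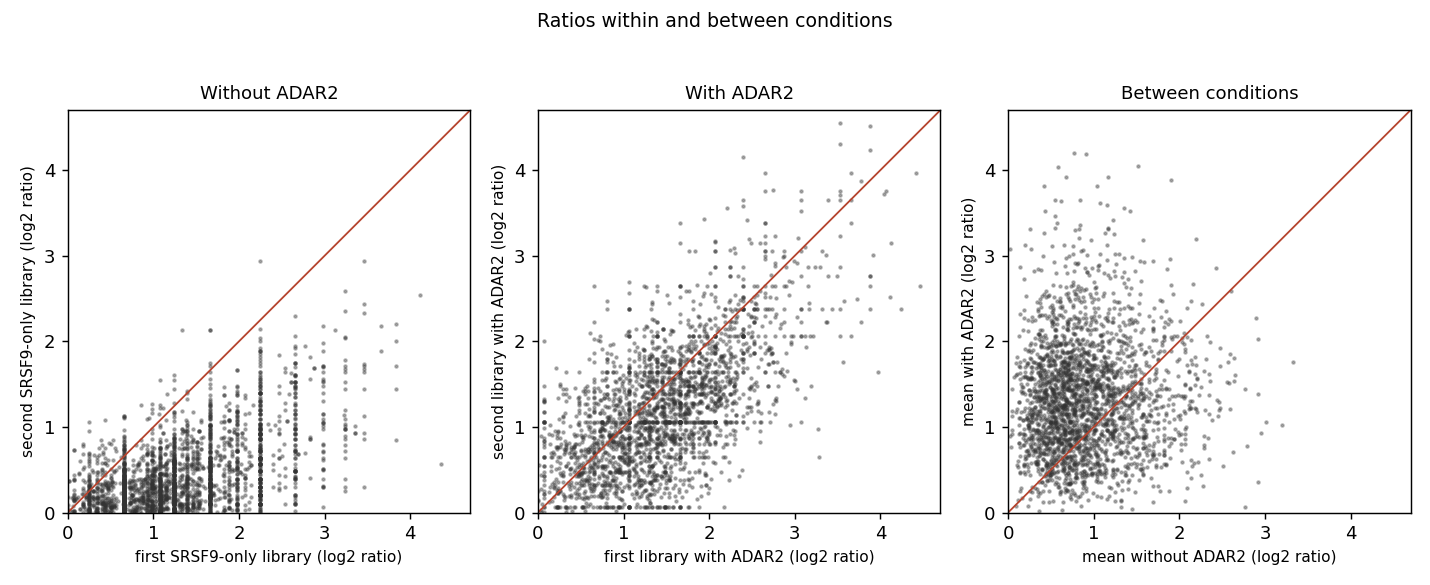
Log2 ratios of the 2529 regions, 1 point each: second against first SRSF9-only library (left), second against first library with ADAR2 (middle), and mean with against mean without ADAR2 (right); the red line marks equal values. Points follow a slope within the conditions (r = 0.54 and 0.64) and form a round cloud between them (r = 0.05); the vertical stripes in the left panel are the repeated values of the first SRSF9-only library.

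As deposited, most regions had their higher mean with ADAR2, but this direction depended on 1 library and on the scale. The median difference, with minus without ADAR2, was 0.41 on the log2 scale (quartiles -0.11 and 0.94), and 1774 of 2529 regions, 70.1%, were higher with ADAR2. Without the second SRSF9-only library the median difference was 0.02 and 51.0% were higher. Without the first it was 0.84 and 88.0%. With each library centred on its median over all shared regions, which moved the median difference of those from 0.62 to 0.03, the difference of the 2529 regions was -0.18 and 40.6% were higher. The other 1116 shared regions had a median difference of 1.32 as deposited. Most of those, 830, were negative in the SRSF9-only libraries and positive with ADAR2, so their difference follows from the way they were set apart.

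Beyond the gap between the libraries, fewer regions differed. Both libraries with ADAR2 were above both without in 963 of the 2529 regions, 38.1%, against 49.9% of all shared regions, and below both in 178, 7.04%, against 9.22%. After centring, the numbers were 564, 22.3%, against 33.8% above, and 889, 35.2%, against 30.5% below. By limma across all 3645 shared regions with Benjamini-Hochberg adjustment, 220 of the regions were called higher with ADAR2 and 25 lower, where 18.5% and 2.41% of all shared regions were called. After centring, 132 were called higher and 258 lower, where the shares over all shared regions were 12.6% and 10.9%. The values that chose the regions also make up these contrasts, so the counts describe them and nothing is read from them. In the fit as deposited, limma gave each region the same standard error, 0.59, so a call there means a difference of at least 1.51 in size. That limit does not hold for the centred fit, where the median standard error was 0.41. Without either SRSF9-only library limma called 0 of the regions (725 and 472 of the 2529 at an unadjusted p under 0.05 without the first and the second). In those fits the spread came from the pair with ADAR2 alone, and the lone SRSF9-only library was assumed to vary like it.

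The 10 regions with the largest difference had means of 0.02 to 0.91 without ADAR2 and of 3.08 to 4.20 with it, and differences of 3.02 to 3.46. The median of all 2529 regions was 0.82 without ADAR2, and 1 of the 10, chr3:101295451-101295509, was above it. In chr15:83419339-83419390 the ratios were 0.66 and 0.50 in the SRSF9-only pair, against 3.53 and 4.55 with ADAR2, the highest value of the second library with ADAR2 in any of the 2529 regions. In chr14:103272412-103272464 they were 1.24 and 0.30 in the SRSF9-only pair, against 3.88 and 4.52 with ADAR2. In chr3:119812369-119812390, of 22 nt, they were 0.66 and 0.18 in the SRSF9-only pair, against 3.77 and 3.87 with ADAR2. The conditions lay far apart in each of these regions.

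A second region on chromosome 3, chr3:101295451-101295509, had 1.66 and 0.16 in the SRSF9-only pair, against 4.42 and 3.97 with ADAR2. In chr5:34915559-34915611 the ratios were 1.07 and 0.27 in the SRSF9-only pair, against 4.07 and 3.76 with ADAR2. On the X chromosome, chrX:102470878-102470926 had 0.98 and 0.12 in the SRSF9-only pair, against 3.53 and 3.76 with ADAR2, and chrX:100650602-100650656 had 0.66 and 0.21, then 3.39 and 3.65. Both SRSF9-only values were nearest to 0 in chr17:25631814-25631832, with 0.006 and 0.044 in the SRSF9-only pair, against 3.39 and 2.76 with ADAR2. That region met the rule by a margin of 0.006. The libraries with ADAR2 were least alike in chr1:2171568-2171625, with 4.11 and 2.52, against 0.24 and 0.26 without ADAR2.

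The regions with the most negative difference showed the reverse layout. Over the first 10, the means were 2.06 to 3.20 without ADAR2 and 0.06 to 1.06 with it, and the differences -2.71 to -1.91. In chr10:32667600-32667659 the ratios were 3.66 and 1.89 in the SRSF9-only pair, against 0.069 and 0.060 with ADAR2. In chr6:79711721-79711731, of 11 nt, they were 3.24 and 2.58 in the SRSF9-only pair, against 0.29 and 0.42 with ADAR2. In chr9:89306243-89306264 they were 3.46 and 2.93 in the SRSF9-only pair, against 1.39 and 0.65 with ADAR2, and 2.93 was the highest value of the second SRSF9-only library, tied with a region on chromosome 17. The libraries of each condition lay on opposite sides of a clear gap in these 3 regions. Also in the list were chrX:16841109-16841127, with a difference of -2.03, chr12:56120961-56121011, with -2.02, and 2 regions on chromosome 17. In chr17:62497425-62497516 the ratios were 3.24 and 1.79 in the SRSF9-only pair, against 0.61 and 0.48 with ADAR2, and the difference of -1.97 was -1.24 without the first SRSF9-only library. In chr17:27613015-27613046 they were 3.83 and 2.20 in the SRSF9-only pair, against 0.96 and 1.15 with ADAR2, and the difference of -1.96 was -1.15 without that library. Which end reached further from 0 depended on the scale. As deposited, 5 regions had a difference below -2 and 77 one above 2, with extremes of -2.71 and 3.46. With centred libraries there were 30 and 22, with extremes of -3.30 and 2.87, and without the second SRSF9-only library there were 63 and 45. Without the first SRSF9-only library there was 1 region below -2 and there were 172 above 2.

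**Figure D3:**
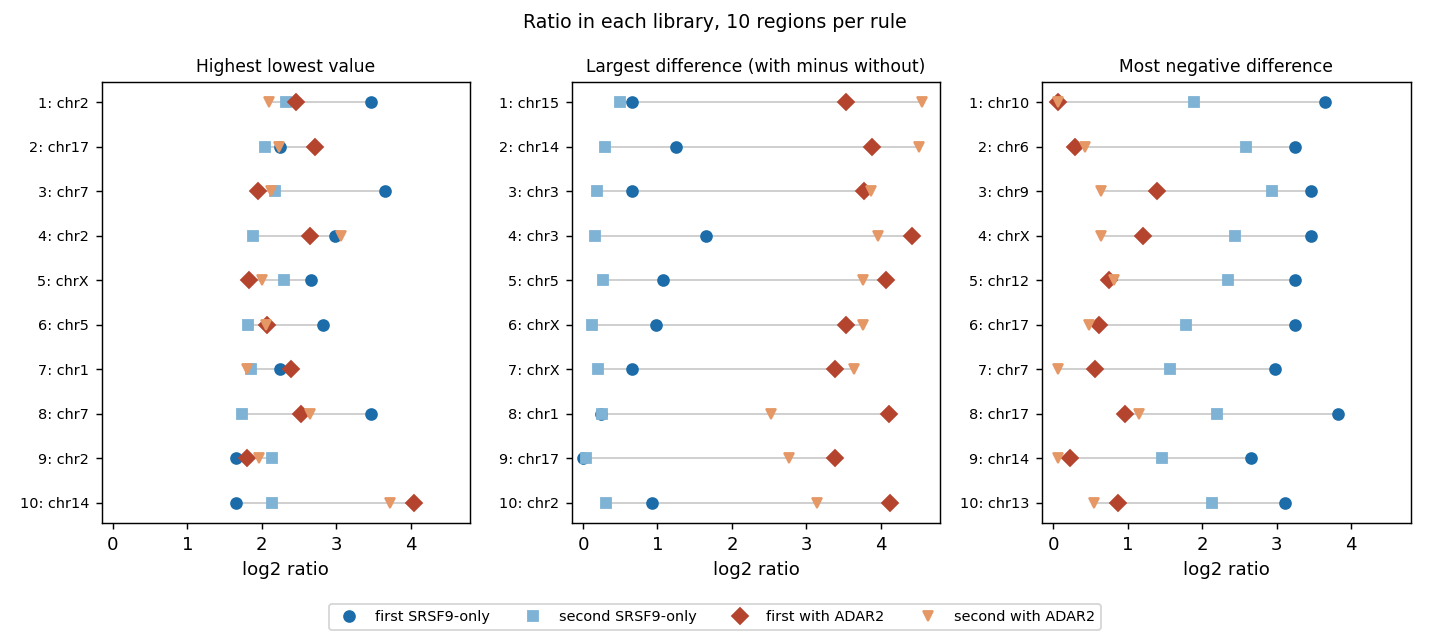
Log2 ratio in each library (horizontal axis) for the 10 regions with the highest lowest value (left), the largest difference with minus without ADAR2 (middle) and the most negative difference (right), ranked from the top and labelled by chromosome; symbols mark the libraries and grey lines their range. The symbols of the conditions intermix in most rows on the left and are separated in the other panels, as the ranking there sets.

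Width was not used to choose the regions. Their median width was 49 nt (quartiles 31 and 70), from 1 to 345 nt, and together they covered 136895 nt. The other shared regions had a median of 53 nt (35 and 80). Their widths include 30 regions on the mitochondrial chromosome, which was left out of the other sets. Positive peaks of 1 condition were narrower, with a median of 34 nt (20 and 49) over 66625 peaks only with ADAR2 and of 32 nt (19 and 47) over 3642 only without it. Regions over 100 nt made up 8.62% of the 2529 and 13.4% of the other shared regions, against 1.80% and 1.15% of those peaks of 1 condition. The median width was 49 nt among the 737 regions above 0.5 throughout and 48 nt among the 149 above 1, so it hardly moved with the level. The sources used here do not say how the limits of a shared region were drawn, and the part of that step in these widths was not tested.

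The difference between conditions was larger in wider regions. Its median was 0.27 in the 471 regions of 25 nt or less and 0.35 in the 869 of 26 to 50 nt. It was 0.47 at 51 to 75 nt, 0.61 at 76 to 100 nt and 0.61 above 100 nt, and the share of regions higher with ADAR2 went from 63.1% to 82.6% between the narrowest and the widest. Spearman's rho of width with the difference was 0.13 across the 2529 regions, with -0.09 for the mean without ADAR2 and 0.10 for the mean with it. The lowest medians were in the 2 narrowest classes in every setting tried, although the level of the whole series of medians moved. Without the second SRSF9-only library the medians were -0.17 in the narrowest class and 0.24 in the widest, and with centred libraries they were -0.32 and 0.02. In these settings the narrow classes were thus lower with ADAR2 by the median. No test was made across regions.

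**Figure D4:**
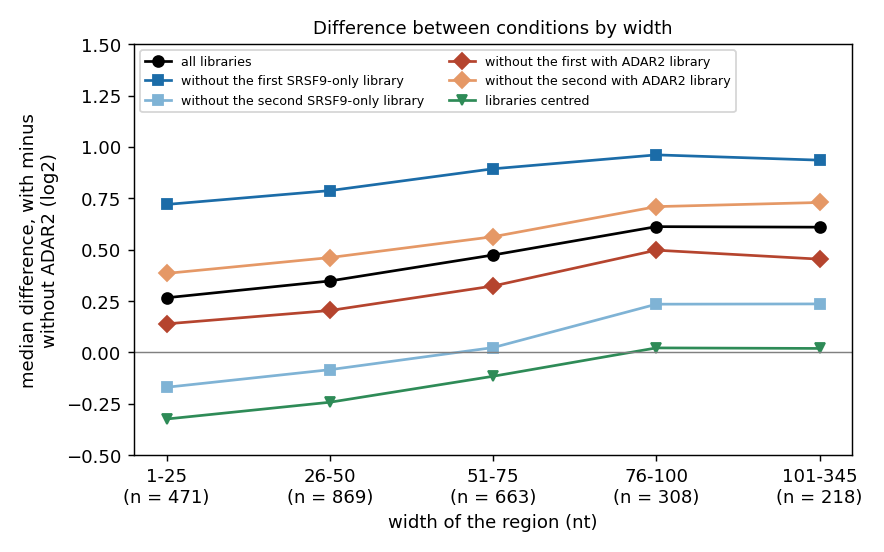
Median difference, with minus without ADAR2 (vertical axis, log2), of the regions in 5 classes of width (horizontal axis, with the number of regions), for all libraries, with each library left out and with centred libraries. With all libraries the medians run from 0.27 to 0.61; the lines are shifted against each other and those with centred libraries and without the second SRSF9-only library start below 0.

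The widest region, chrX:73046222-73046566 with 345 nt, had low ratios of 0.41 and 0.11 in the SRSF9-only pair, against 0.81 and 0.36 with ADAR2, and it was the average of 5 rows, the most of any. The next, chr22:38883981-38884259 with 279 nt, had 0.42 and 0.10 in the SRSF9-only pair, against 0.44 and 0.43 with ADAR2. In chr10:70092061-70092316, of 256 nt, the ratios were 0.74 and 0.006 in the SRSF9-only pair, against 2.30 and 1.83 with ADAR2. At the other end, 101 regions were shorter than 10 nt and 4 were 1 nt long, such as chr1:23648137-23648137 with 1.51 and 0.51 in the SRSF9-only pair, against 1.29 and 1.64 with ADAR2.

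The regions lay on 23 chromosomes, chromosomes 1 to 22 and X. Chromosome 1 held 344 of them, chromosome 17 held 183 and chromosome 12 held 178. The 2529 regions were 69.4% of all shared regions, and by chromosome this share was lowest on chromosome 19, where 95 of the shared regions were above 0 throughout and 93 were not (50.5%), and on chromosome 16 (56.3%). It was highest on chromosome 18 (80.4%) and chromosome 7 (80.4%), of which chromosome 18 held 37. The median difference with minus without ADAR2 was positive on each of the 23 chromosomes as deposited, from 0.18 on chromosome 21 to 0.61 on chromosome 20. Centring shifts every region by the same amount, and it moved the median of all 2529 regions from 0.41 to -0.18. The sign on a chromosome thus depends on the scale too.

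Most of the regions had other peaks close by. Another of the 2529 lay within 1 kb of 656 regions, 25.9%, and within 10 kb of 1280, 50.6%. For the other nuclear shared regions, one of the 2529 lay within 1 kb of 14.5% and within 10 kb of 42.7%. These shares are not like for like, as distances among the other shared regions themselves are not given here. Of the 656 regions, 161 also repeated both SRSF9-only values of a neighbour. A peak only with ADAR2 lay within 1 kb of 62.8% of the 2529 and a peak only without ADAR2 within 1 kb of 23.6%, against 68.3% and 21.5% for the other nuclear shared regions. Any peak at all lay within 1 kb of 75.4%, and 62 regions had none within 10 kb. As deposited, the median difference with minus without ADAR2 was 0.44 in the 1151 regions with a peak only with ADAR2 within 1 kb and none only without. It was 0.37 in the 161 with the opposite surroundings, 0.54 in the 437 with both and 0.31 in the 780 with neither. Centring shifts these 4 medians alike, so their sign depends on the scale.

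Linked at gaps of up to 1 kb, the regions formed 2150 groups, of which 1873 were single, 216 held 2 and 61 held 3 or more. The largest group, on chrX:73070331-73072542, had 8 regions over 2212 nt. On chr1:245018866-245021554, 7 regions had a higher mean with ADAR2 in all 7 cases, with medians of 0.64 without ADAR2 and 1.65 with it. After centring, 5 of the 7 were higher, and without the first library with ADAR2 also 5. The 7 are not separate measurements. The second SRSF9-only library had the same value, 0.35, in chr1:245021334-245021352, chr1:245021374-245021382 and chr1:245021438-245021554. On chrX:41204496-41207221, 7 regions had medians of 1.12 without ADAR2 and 1.10 with it, and 4 of them were higher with ADAR2. Their median difference was 0.0015 as deposited and -0.59 after centring, when 2 were higher, and it was 0.65 without the first SRSF9-only library, when all 7 were. On chr17:62496717-62498020, 4 of 5 regions were lower with ADAR2, with differences from -1.97 to 0.70. Their median difference was -0.15 as deposited and -0.74 after centring, and without the first SRSF9-only library it was 0.13. In the largest group, 7 of 8 were higher with ADAR2 as deposited and 3 of 8 after centring. The sign of the median difference thus depended on the scale or on 1 library in the groups just described, except in the one on chromosome 1, where it was positive in every setting tried. It was also positive in every setting in the groups on chr5:179047882-179048947, chr7:26231912-26233314, chr11:10823644-10825080 and chr12:54675874-54676657. It changed sign in those on chr10:17275830-17278325, chr11:65270524-65272004 and chr20:2635068-2637138. The groups and the single regions within windows described here were picked after their values were seen.

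Some neighbours carried one and the same SRSF9-only value. Of the 379 pairs of consecutive regions within 1 kb, 81 had identical values in both SRSF9-only libraries, while 1 had identical values in both libraries with ADAR2. The 81 pairs lay a median of 20 nt apart, against 277 nt for the 297 pairs that repeated both values of neither condition. They joined 161 regions into 80 sets. On chromosome X, chrX:45629185-45629259, chrX:45629268-45629277 and chrX:45629280-45629338 all had 1.53 and 0.95 without ADAR2. With ADAR2 they had 1.19 and 0.80, then 1.19 and 0.70, then 0.65 and 0.70. On chromosome 12, chr12:104336853-104336891 and chr12:104336898-104336922 both had 2.60 and 1.53 without ADAR2, and with it 2.21 and 0.80, and 2.21 and 1.53. The regions of such a set are not separate measurements of the SRSF9-only condition. These examples were picked after their values were seen.

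Of the 379 pairs, 150 repeated a value in at least 1 library, and 68 of these did so without repeating both values of a condition. Across the 229 pairs with no value repeated in any library, a set chosen after the data were seen, Spearman's rho between neighbours was 0.22 for the mean without ADAR2, 0.25 for the mean with it and 0.30 for the difference, and 68.6% had a difference of the same sign. Across the 297 pairs that did not repeat both values of a condition, rho was 0.27, 0.29 and 0.30, and 72.1% had the same sign. Over all neighbours within 1 kb, rho was 0.45, 0.40 and 0.41 over 379 pairs. Across 1254 pairs of consecutive regions more than 100 kb apart, rho was -0.003, 0.03 and 0.02, and 56.8% had the same sign. Pairs that share a region are not independent, and these values are given as a description.

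In windows of 100 kb, the 2529 regions occupied 1441 windows, in 907 of which there was 1 region. Windows with 5 or more numbered 71 and held 18.3% of the regions. Most regions, 15, lay in chrX:73000001-73100000, beside 12 other shared regions, 37 peaks only with ADAR2 and 15 only without. Their ratios were low, with medians of 0.43 and 0.29 without ADAR2 and of 0.81 and 0.68 with it. Here 13 of 15 regions were higher with ADAR2 as deposited and 6 of 15 after centring.

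In chr1:245000001-245100000, 13 regions spanned 17843 nt. The strongest of them with ADAR2, chr1:245020972-245021019, had 1.40 and 0.99 in the SRSF9-only pair, against 2.93 and 2.54 with ADAR2. In chr1:245009900-245009946 the ratios were 0.14 and 0.61 in the SRSF9-only pair, against 2.39 and 2.50 with ADAR2, while chr1:245008449-245008590, whose start lies 1.45 kb before, had 1.98 and 1.19 in the SRSF9-only pair, against 1.13 and 0.61 with ADAR2. The window thus held regions of opposite direction next to each other. Of the 13 regions, 12 were higher with ADAR2 as deposited and 9 after centring.

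In chr5:179000001-179100000, all 12 regions, within 8909 nt, were higher with ADAR2 as deposited and with any 1 library left out, and 10 were after centring. Both libraries with ADAR2 were above both without in 10 of them. Some of the 12 repeated values of a neighbour, so they are not 12 separate measurements. For example, chr5:179042550-179042551 and chr5:179042589-179042595 both had 1.01 and 0.28 in the SRSF9-only pair. The windows on chromosomes X and 1 described above held such neighbours too. The median mean was 0.55 without ADAR2 and 1.65 with it. The region chr5:179050460-179050642 had 0.47 and 0.16 in the SRSF9-only pair, against 2.53 and 1.97 with ADAR2, and chr5:179048759-179048872 had 0.47 and 0.34 in the SRSF9-only pair, against 2.25 and 1.85 with ADAR2. The smallest difference, 0.35, was in chr5:179041734-179041764, with 1.05 and 0.39 in the SRSF9-only pair, against 0.88 and 1.26 with ADAR2.

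Other windows were less uniform. In chr7:26200001-26300000, 8 of 9 regions were higher with ADAR2 and 7 after centring, and chr7:26236984-26237081 had 0.77 and 0.28 in the SRSF9-only pair, against 2.72 and 1.92 with ADAR2. In chr3:184000001-184100000, which held 61 peaks only with ADAR2, 8 of 12 regions were higher with ADAR2, but 5 without the second SRSF9-only library and 3 after centring. In chr11:65200001-65300000, 7 of 9 regions were higher as deposited and 3 after centring. The windows chr12:56500001-56600000 and chr22:29600001-29700000 held 9 each, and chr1:8900001-9000000 and chr12:54600001-54700000 held 8 each, the last of which had a median difference of 0.76 as deposited and 0.17 after centring.

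**Figure D5:**
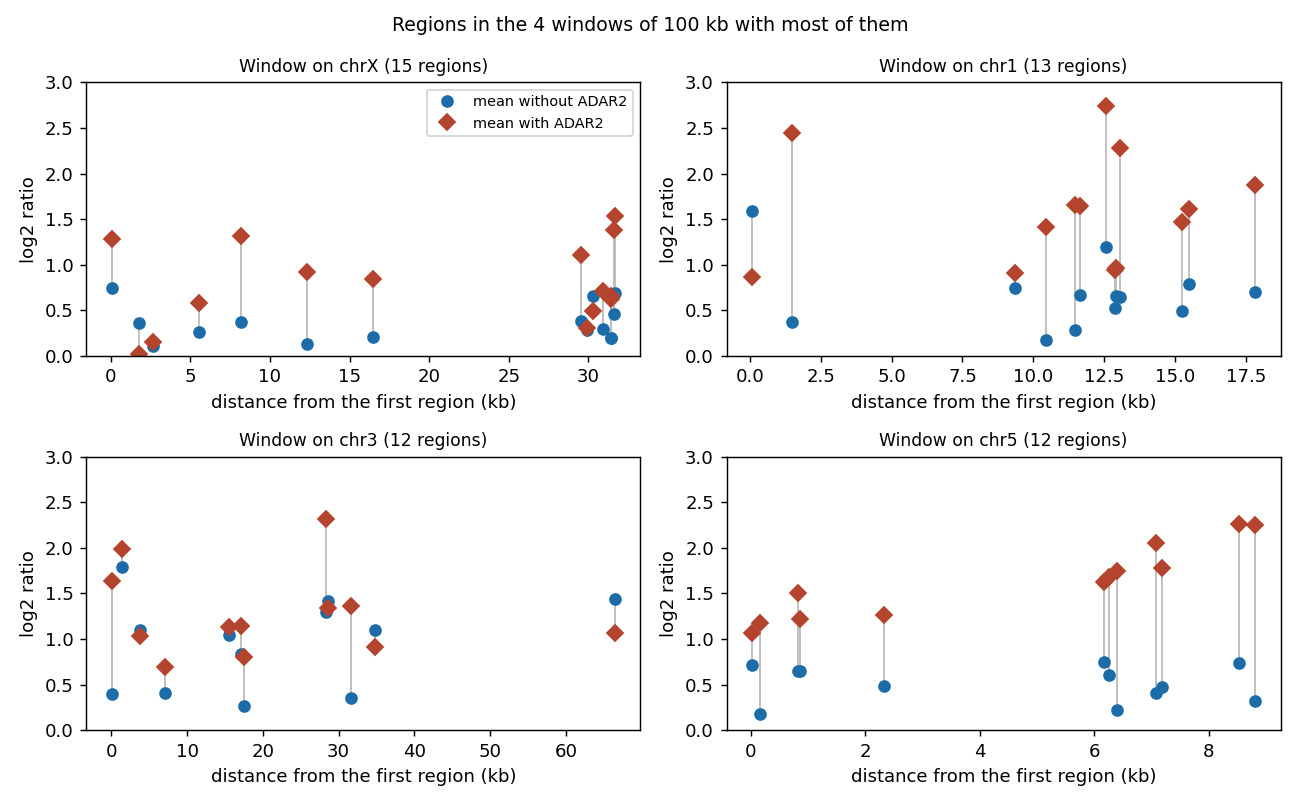
Mean log2 ratio without (blue) and with ADAR2 (red) of the regions in the 4 windows of 100 kb that held most of them, against the distance from the first region of the window in kb; grey lines join the means of a region. In the chromosome 5 window all 12 red symbols lie above the blue ones, and in the chromosome 1 window 12 of 13 do.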

How the data were processed

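The data are 1 deposited table of peaks for the whole series, with no header, strand, gene name or read count. Its 4 value columns are log2 ratios made by the authors for eCLIP libraries of HEK 293T cells, with an unnamed denominator. The build is hg19, per the submitters' processing notes; the aligner, peak caller and thresholds used by the authors were not given in the sources used here. Columns were assigned to conditions by the class of each peak, since a condition in which a peak is absent holds 0. Within a condition they are called first and second in file order. Rows were filtered by the rule, then averaged by identical coordinates. Differences are the mean with ADAR2 minus the mean without. All 3645 shared regions were fitted with limma 3.58.1 in R 4.3.3, at n = 2 libraries per condition, no covariates, Benjamini-Hochberg adjustment and a threshold of 0.05; the script was checked on simulated data. In the fit, the region with 1 unused row kept the average of both rows. Regions were named by rank (lowest value, mean, difference, width, distance from 0) and windows by number of regions. Distances run between region edges. Alternatives were centred libraries, single libraries left out, other variance models, filters and thresholds. The regions and lists were chosen with earlier results of these data known. Sequence, genes and the gene lists planned were not analysed here, for want of an hg19 reference. Depth is unknown, so no interval is given. The number of columns of per-sample values left unused was 0.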

Additional observations from a re-analysis of the deposited data

How the results depend on the processing

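No paired analysis was possible because the columns carry no replicate numbers. The median difference of the 2529 regions, 0.41, reversed to -0.18 with centred libraries and ranged from 0.02 to 0.84 with 1 library left out. limma called 763 shared regions, 220 of the 2529 higher and 25 lower. With 1 library left out, these counts ranged from 0 to 221, from 0 to 41 and from 0 to 2. Both 0 counts for all shared regions came without an SRSF9-only library (1405 and 1051 at an unadjusted p under 0.05). With the ordinary variance per region, limma's fit called 0, 0 and 0 (708 of all shared regions and 259 of the 2529 at an unadjusted p under 0.05). Among shared regions above the median mean ratio, it called 146, 85 and 8, with 1821 regions tested, of which 1768 were among the 2529. With a variance trend 96 of the 2529 were higher and 9 lower, beside 716 and 92 of all 3645 shared regions. With centred libraries 132 and 258 of the 2529 were called, beside 459 and 396 of all 3645. Some of these fits had fewer regions or libraries, and why the counts moved was not tested. Thresholds of 0.25, 0.5 and 1 left 1435, 737 and 149 regions. Above each library's own median over the shared regions, an alternative chosen after seeing the data, there were 598. Within 100 nt of another were 299 regions and within 10 kb 1280, against 656 within 1 kb. Windows of 1 Mb numbered 914. Counting rows without averaging gave 2629, merging overlapping regions left 2529, and the median width was 48 to 49 nt at each threshold tried. Of the named regions, 24 that were called by limma were followed over these alternatives, most of them named for their large difference. All 24 lost the call with the ordinary variance. Other regions given in the text passed the call limit of 1.51, such as chr12:112847296-112847397, and were not followed. Where 1 library was left out, the spread came from the remaining pair. Depth is unknown and limits what can be said of single values.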
